A study of Homo sapiens with 9 samples.

Results

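The comparison described here sets U87 cells that received the unedited form of the microRNA miR-376a* (miR-376a*A) against U87 cells that received a control duplex (miR-control). Its arrays were chosen by their titles, which gave 3 arrays of each group, 6 of the 9 arrays in the series. Because miR-376a*A replicate 1 and control replicate 1 lay with the other group, the comparison is given first as labelled and then over the 4 arrays that remain without them. Genes of the cell cycle and of the extracellular matrix were set aside by name, and the account is of the changes beyond them.

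U87 is an established human glioma line. Cells of all 3 groups were transfected with a duplex at 50 nM using the lipid reagent Lipofectamine RNAiMAX and harvested 72 h later, and each group has 3 replicates that the labels call biological. The third group received the edited form, miR-376a*G. Transcripts were measured on Affymetrix arrays as 1 signal per probe set, in linear intensity units, and differences are of log2(signal + 1). The study used 1 cell line and delivered duplexes from outside, and untransfected cells are not analysed here.

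A microRNA guides the Argonaute protein to messenger RNAs that pair with its seed, the bases near its 5′ end, and lowers their levels. ADAR enzymes can convert an adenosine in the precursor to inosine, which pairs like guanosine, and in miR-376a* the edited position lies in the seed, so the edited and unedited forms can bind different transcripts. RAP2A, which codes for a RAS-related small GTPase, is a target reported for the unedited form in glioma.

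The mature sequences of the miR-376a genes are shown because the 2 forms of the microRNA are named for an A or a G at the edited position of the seed. They are RefSeq sequences of GRCh38.p14 on the plus strand, with the seed (bases 2 to 8) in capitals. The strand once named miR-376a* is now named hsa-miR-376a-5p, is encoded by MIR376A1 at chr14:101040788-101040809 and is the unedited sequence. The strand opposite it is hsa-miR-376a-3p, and the second gene, MIR376A2, gives the related hsa-miR-376a-2-5p from chr14:101040080-101040100. The sequences of the transfected duplexes themselves were not used here.
hsa-miR-376a-5p: gUAGAUUCuccuucuaugagua
hsa-miR-376a-2-5p: gGUAGAUUuuccuucuauggu
hsa-miR-376a-3p: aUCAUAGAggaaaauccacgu
The seed UAGAUUC was held by 1 of 2370 mature human microRNAs in that table, hsa-miR-376a-5p itself. The seed GUAGAUU of the strand from the second gene was likewise held by 1. The 2 strands from the 5′ arm thus share most of their letters but not their seed.

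As labelled, 2 arrays lay apart from their groups. Across 12587 genes of 1 array design, miR-376a*A replicate 1 had r = 0.925 and 0.934 to the other arrays of its own group but 0.987 and 0.990 to those of control, and control replicate 1 had 0.935 and 0.934 to its own group but 0.990 and 0.982 to that of miR-376a*A. Hybridisation controls, bacterial transcripts added to the hybridisation mix, kept to the labels, with mean log2 signals of 7.82 to 7.92 on miR-376a*A arrays and 7.51 to 7.70 on control arrays. Poly-A controls, transcripts spiked in at the priming step, were split by label as well, at 7.64 to 7.71 and 7.76 to 7.85. In both sets of controls the gap between the groups was smaller than the range over the control arrays, so the split is a narrow one. Median signals of all probe sets lay between 18.0 and 24.6 on the 9 arrays. Why the 2 arrays lay where they did was not tested. Every direction below rests on the labels of the 4 arrays that remain.

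Markers of cell types were read on all arrays, which cannot by themselves establish that the cells were U87. The 8 markers of a mesenchymal glioma line were all measured. Vimentin (VIM) had signals of 2107 to 2975, CD44 1475 to 2193 and nestin (NES), the dimmest, 32.4 to 61.6. Over the remaining arrays 7 of the 8 were higher with miR-376a*A, by log2 differences of 0.34 (VIM) to 0.67 (CHI3L1). Beside this and the counts below, 19% of all tested genes were higher and 22.9% lower. Scaling arrays to the hybridisation controls moved the median of all genes to -0.27, so such small differences depend on scaling. The astrocyte markers GFAP, at 1.48 to 5.66, and S100B, at 0.68 to 1.30, were near the bottom of the scale on every array, while GJA1, at 931 to 1969, and SLC1A3, at 138 to 374, were measured on every array. Of 40 markers of 6 other cell types 38 were on the array and 17 passed the filter on low signal. The summed signal of the neuron list was 3787 to 4017 on miR-376a*A replicates 2 and 3 and 2391 to 2536 on control replicates 2 and 3, with 2 of 6 tested members higher and 1 lower. Most of that gap was SNAP25, a protein of the synaptic vesicle fusion machinery, at 1656 and 1825 against 240 and 214. Of the astrocyte list 2 of 3 tested members were higher, and of the oligodendrocyte, endothelium and leukocyte lists 1 each. The part of these genes in the results below was not tested.

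With the arrays as labelled, no gene passed the test between miR-376a*A and control. Limma called 0 of 12587 genes at an adjusted p under 0.05 (0% of genes), 463 had an unadjusted p under 0.05, and the smallest adjusted p was 0.886. In 774 genes (6.15%) the 3 arrays of one group lay wholly beyond the 3 of the other, 324 higher and 450 lower with miR-376a*A. Arrays dealt at random to 2 groups of 3 would on average separate in a larger share of genes, so this count is no sign of a difference. Among those with a group mean of at least 100, no log2 difference was larger than 0.73.

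The genes that kept their groups apart across all 6 labelled arrays differed little. NKAP, a nuclear protein of transcription and splicing, had signals of 73.5, 69.3 and 61.4 in the miR-376a*A replicates and 99.6, 117 and 115 in those of control, in the order 1 to 3. HAUS2, a subunit of the augmin complex that branches microtubules, had 321, 307 and 240 against 532, 450 and 452. In both genes every miR-376a*A array was below every control array, the 2 arrays that lay apart included, as the rule for naming them required. Mean signals were 68.1 ± 6.11 and 111 ± 9.54 (SD, n = 3) for NKAP and 289 ± 43.0 and 478 ± 46.6 for HAUS2. The log2 differences were -0.69 (SE 0.14) and -0.73 (SE 0.19), each with limma's adjusted p = 0.886, so neither passed. GATAD1, a zinc finger protein of chromatin, differed by -0.73, ALDH3B1, an aldehyde dehydrogenase, by -0.67, and OR7E104P, an olfactory receptor pseudogene of a family with many similar copies, by -0.69.

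On the other side the differences were smaller still. ITFG2, a subunit of the KICSTOR complex in nutrient sensing, had signals of 106, 161 and 178 with miR-376a*A and 103, 105 and 92.6 with control. Its lowest miR-376a*A array was just above its highest control array. ACBD3, a Golgi scaffold protein, had 479, 544 and 671 against 459, 377 and 402. The log2 differences were 0.53 (SE 0.19) for ITFG2, 0.48 for MTMR11, 0.44 (SE 0.15) for ACBD3, 0.43 for TXLNA and 0.43 for KLHL36, each with limma's adjusted p = 0.886. KLHL36 alone of these 5 was not called over the remaining arrays either (0.33; limma, adjusted p = 0.195).

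RAP2A showed no difference as labelled. In replicate order its signals were 895, 412 and 531 with miR-376a*A and 353, 702 and 784 with control. Replicate 1 was the highest of the miR-376a*A arrays and the lowest of the control arrays, so the groups overlapped, and the log2 difference was 0.00 (SE 0.33). Over the remaining arrays RAP2A was lower with miR-376a*A by a log2 difference of -0.66 (SE 0.12; limma, adjusted p = 9.9e-04). With miR-376a*G it stood at 899, 888 and 863, above miR-376a*A replicates 2 and 3 (log2 difference of miR-376a*A from miR-376a*G -0.92).

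Without miR-376a*A replicate 1 and control replicate 1 much of the array differed. Beyond the cell cycle and matrix, the genes with large differences included STMN3 and IGFBP1 above control and SCML1 and ELOVL5 below it. Limma called 5269 of 12587 genes (41.9%), 2389 higher (19%) and 2880 lower (22.9%) with miR-376a*A. At least 2-fold differences were found in 603 higher and 724 lower genes, at least 4-fold ones in 108 and 101, and 2149 of the called genes differed by less than 1.5-fold. The arrays left out were chosen because they lay with the other group, so these p-values are not independent of that choice. Each group has 2 arrays, and the 2 arrays of one lay beyond the 2 of the other in 69.5% of genes. How the calls split by direction depends on scaling: 45.3% were higher on the signals as deposited, 32.3% after centring arrays on their median, 18.1% when arrays were scaled to their hybridisation controls and 55.1% when poly-A controls set the scale. These scalings moved the median of all genes from 0.00 to -0.11, -0.27 and 0.08.

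The 2 arrays left out ran the other way. In 4953 of the 5269 called genes (94.0%) the difference between miR-376a*A replicate 1 and control replicate 1 had the opposite sign, as it had in 1306 of the 1327 genes called with at least a 2-fold difference and in 9918 of all 12587 (78.8%). Across genes the 2 differences correlated at r = -0.83. No array is shared between them, but the pair was left out for this behaviour, so the counts describe it and support nothing.

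**Figure D1:**
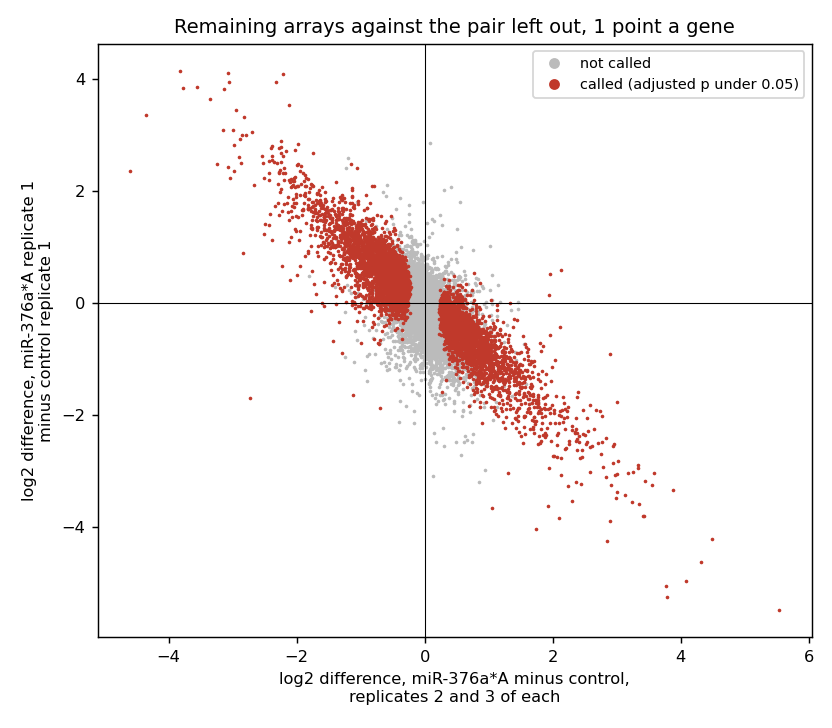
Each point is 1 of 12587 genes: the x axis is the log2 difference of miR-376a*A from control over replicates 2 and 3 of each, the y axis the log2 difference of miR-376a*A replicate 1 from control replicate 1, and red points are the 5269 genes called. The points run from the upper left to the lower right, with 94.0% of the called genes having opposite signs on the 2 axes.

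Set aside by name were 348 tested genes of the cell cycle, 40 higher and 136 lower (median log2 difference -0.21), and 176 of the matrix, 102 higher and 16 lower (median 0.52). Beyond both, 4975 of 12063 genes were called (41.2%), 2247 higher and 2728 lower. The genes named next are the 15 of largest log2 difference in each direction among these, with the higher group at a mean signal of at least 100. Where the lower group lies near or below the array median the size of the difference, and so the order, depends on the pseudocount. In all 15 of each direction the left-out pair had the opposite sign.

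A membrane protein gene and a stathmin gene were high on the same arrays. DISP2, of the Dispatched family of membrane proteins, had signals of 221 and 194 on miR-376a*A replicates 2 and 3 and 3.44 and 3.55 on control replicates 2 and 3. On the arrays left out it was 3.45 (miR-376a*A replicate 1) and 200 (control replicate 1), and on the miR-376a*G arrays 3.13 to 4.27. The 3 high arrays were thus miR-376a*A replicates 2 and 3 and control replicate 1, and the other 6 lay below the array medians. The log2 difference was 5.53 (SE 0.34; limma, adjusted p = 1.0e-06), and 3.52 with a pseudocount of 16, since the low signals are near the floor. STMN3, a stathmin that destabilises microtubules, had 509 and 494 against 19.2 and 23.9, with 23.4 and 454 on the arrays left out. The same 3 arrays were high, and the log2 difference was 4.49 (SE 0.18; limma, adjusted p = 8.2e-08).

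IGFBP4 and IGFBP1, secreted proteins that bind insulin-like growth factors, were both higher. IGFBP1 had signals of 1855 and 1468 on miR-376a*A replicates 2 and 3 and 177 and 80.3 on control replicates 2 and 3, with 44.0 and 1713 on the arrays left out. The control arrays themselves differed by more than 2-fold, which is still far less than their distance from miR-376a*A. IGFBP4 had 187 and 145 against 14.6 and 5.12. The log2 differences were 3.78 (SE 0.33; limma, adjusted p = 1.1e-05) for IGFBP1 and 4.08 (SE 0.56; limma, adjusted p = 2.0e-04) for IGFBP4, which had the largest standard error of the 30 and whose difference was 2.83 with a pseudocount of 16.

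Several secreted signals followed. IL11, a cytokine of the interleukin-6 family, had 275 and 272 with miR-376a*A and 23.9 and 25.4 with control, a log2 difference of 3.42 (SE 0.15; limma, adjusted p = 8.3e-08). INHBA, which encodes the subunit of activin A, had 234 and 211 against 25.2 and 17.3, a difference of 3.35 (SE 0.28). PTN, the heparin-binding growth factor pleiotrophin, had 1452 and 1087 against 134 and 153, a difference of 3.12 (SE 0.14). Of these 3 ligands IL11 had the closest replicates, while the control arrays of INHBA and the miR-376a*A arrays of PTN lay further apart. SCUBE3, a secreted glycoprotein with EGF-like repeats, differed by 3.44, and OLFML2A, an olfactomedin-like secreted protein, by 3.01.

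The other 6 of the 15 code for membrane proteins. ALK, a receptor tyrosine kinase of neural development, had 192 and 210 on miR-376a*A replicates 2 and 3 and 18.6 and 19.6 on control replicates 2 and 3 (log2 difference 3.33, SE 0.28; limma, adjusted p = 7.9e-06). SEMA7A, a membrane-anchored semaphorin, had 1650 and 1459 against 148 and 182 (3.23, SE 0.12; limma, adjusted p = 5.9e-08). In both genes control replicate 1 was at the level of miR-376a*A replicates 2 and 3, at 156 and 1585. PODXL, the sialomucin podocalyxin, differed by 3.34, NETO2, an auxiliary subunit of kainate receptors, by 3.25, the membrane protein gene TMEM200A by 3.18 and the orphan receptor gene MRGPRF by 3.01.

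**Figure D2:**
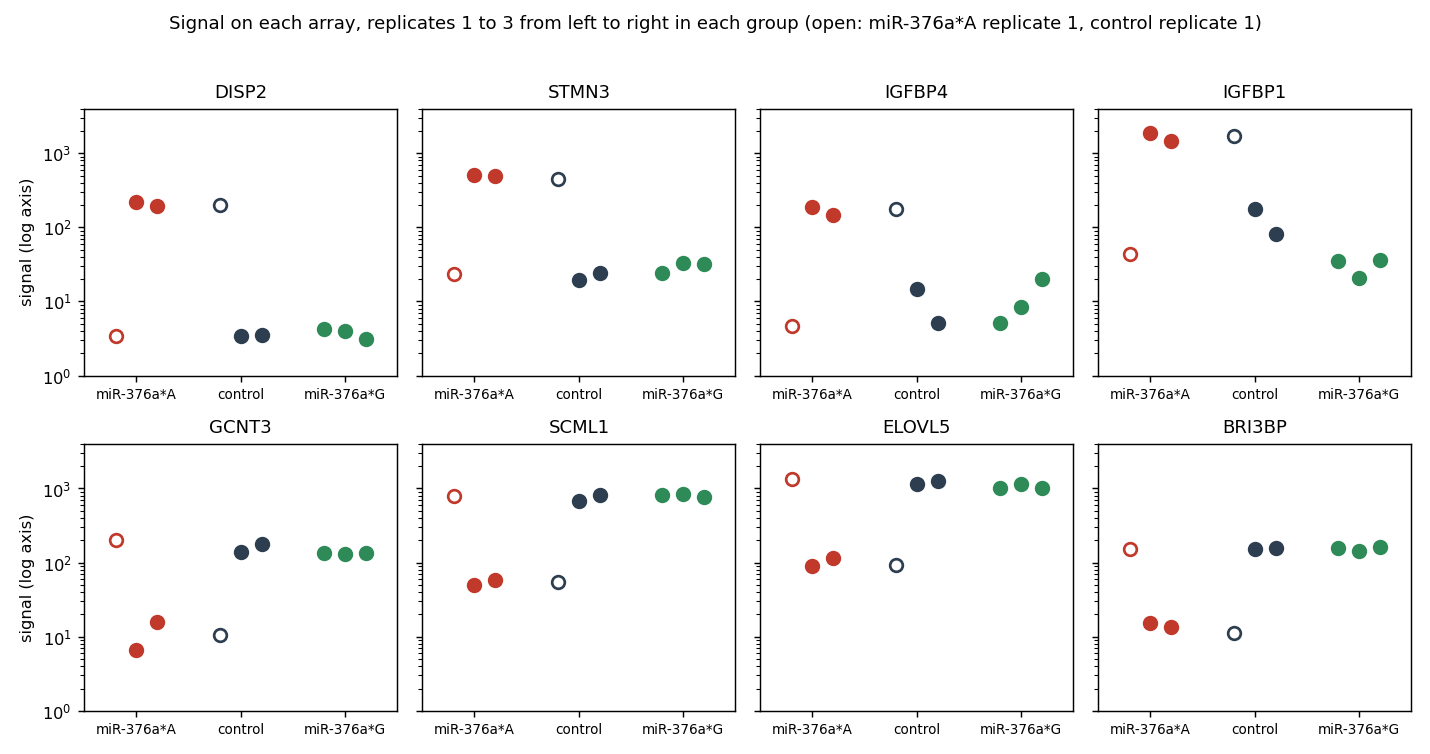
Signal (log axis) of 4 genes above control (DISP2, STMN3, IGFBP4, IGFBP1) and 4 below it (GCNT3, SCML1, ELOVL5, BRI3BP), those of largest log2 difference with a pseudocount of 1, on each of the 9 arrays, 1 point an array, with miR-376a*A replicate 1 and control replicate 1 drawn open. In each panel the open points lie with the other group: STMN3 is at 509 and 494 on the filled miR-376a*A points and at 454 on the open control point.

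Among the genes below control was GCNT3, an enzyme that branches the sugar chains of mucins. It had signals of 6.69 and 15.6 on miR-376a*A replicates 2 and 3 and 141 and 178 on control replicates 2 and 3, with 205 on miR-376a*A replicate 1 and 10.7 on control replicate 1. The low signals lay below the array medians, and the log2 difference of -3.82 (SE 0.29; limma, adjusted p = 3.6e-06) was -2.70 with a pseudocount of 16. SCML1, a protein related to the Polycomb group, had 49.7 and 58.0 against 683 and 820, a log2 difference of -3.78 (SE 0.12; limma, adjusted p = 4.6e-08). BRI3BP, which codes for a membrane protein, had 15.3 and 13.5 against 155 and 156 (-3.35, SE 0.14, and -2.50 with a pseudocount of 16).

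ELOVL5 and 2 further genes named here code for enzymes of or near lipids. ELOVL5, which lengthens polyunsaturated fatty acids, had 89.2 and 114 with miR-376a*A and 1147 and 1266 with control, a log2 difference of -3.56 (SE 0.12; limma, adjusted p = 5.9e-08). The arrays left out were at 1361 and 93.3, again on the opposite sides. PNLIPRP3, related to pancreatic lipase, differed by -3.00, and TMT1A, a methyltransferase of the endoplasmic reticulum, by -2.87.

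A transporter, a pump assembly factor and a small GTPase were also among the 15. SLC38A1, a glutamine transporter, had 113 and 120 on miR-376a*A replicates 2 and 3 and 761 and 909 on control replicates 2 and 3 (log2 difference -2.83, SE 0.10; limma, adjusted p = 5.9e-08). VMA21, an assembly factor of the proton pump of lysosomes, had 89.6 and 109 against 750 and 793 (-2.95, SE 0.11). RRAS2, a small GTPase of the RAS family, had 72.6 and 96.9 against 620 and 639 (-2.89, SE 0.13). All 3 were at the control level on miR-376a*A replicate 1, at 1059, 894 and 626. COMMD2 differed by -2.97, AMN1 by -3.14 and TNIP3, which binds the NF-kB inhibitor A20, by -2.66. TVP23B, a Golgi protein gene with a near-identical copy, differed by -2.98, and a probe set that the platform's table names MIR1244-3, a microRNA with several near-identical copies, by -3.25, so the source of these 2 signals is uncertain.

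TWSG1, a secreted protein that modulates bone morphogenetic proteins, was low with both forms of the microRNA. Its signals were 87.6 and 97.1 on miR-376a*A replicates 2 and 3, 631 and 660 on control replicates 2 and 3, and 57.2 to 59.9 on the miR-376a*G arrays. It differed from control by -2.79 (SE 0.11; limma, adjusted p = 7.5e-08) and from miR-376a*G by 0.65 (adjusted p = 2.3e-04), which turned to -0.031 under scaling to the hybridisation controls. PTN was high with both forms, at 1349 to 1596 on the miR-376a*G arrays, and its difference of -0.20 between the forms did not pass (adjusted p = 0.182). TMEM200A stood at 133 to 139 with miR-376a*G, between the 194 and 195 of miR-376a*A and the 24.8 and 17.1 of control, and its difference of 0.51 from miR-376a*G turned to -0.17 under that scaling. By contrast SCML1 had 757 to 848 and ELOVL5 1003 to 1154 with miR-376a*G, near the control arrays. Over the same arrays limma called 59.6% of all genes between the 2 forms, 25.7% higher and 34% lower with miR-376a*A. Of these calls 43.0% were higher as deposited, 57.3% after median centring, 29.7% after poly-A scaling and 10.7% after hybridisation scaling. That comparison and the one with control share miR-376a*A replicates 2 and 3.

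Gene lists were described by counts and medians. Of 66 lists with at least 8 tested members 44 had a median above 0 and 22 below, beside a median of 0.00 over all genes. Tested genes had to exceed the array median on at least 3 of 9 arrays, so a gene could pass through the group where it was high. Of the 945 tested members of the 24 lists described, 5 were also in the cell cycle or matrix lists (CDKN1A, H2AX, H2AZ1, KPNA2 and ZNF367). Shares called are to be read against the 19% higher and 22.9% lower over all genes. Under scaling to the hybridisation controls the medians of the 12 highest lists fell to 0.01 to 0.46, beside -0.27 for all genes, and under no scaling tried did any of the 24 described lists change sign. Of 120 genes named over these arrays, that scaling moved the log2 difference of 11 by over 1.5 times.

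Secreted growth factors had the highest median, 0.73, with 15 of 25 tested members higher and 2 lower (29 on the array). After PTN came BDNF, a neurotrophin, with signals of 501 and 453 on miR-376a*A replicates 2 and 3 and 150 and 152 on control replicates 2 and 3. HBEGF and TGFA, both ligands of the EGF receptor, had 455 and 507 against 190 and 176, and 1528 and 1467 against 752 and 710. Both miR-376a*A arrays lay above both control arrays in these genes, which were named for their small p, and groups lay apart in 69.5% of all genes. The log2 differences were 1.65, 1.39 and 1.03, each with limma's adjusted p at or below 5.0e-06. BDNF and HBEGF were as high with miR-376a*G, at 457 to 521 and 462 to 515, while TGFA was far lower there, at 183 to 191.

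Targets of p53, the transcription factor of the DNA damage response, were higher in 18 of 25 tested members and lower in 2, with a median of 0.61. DDB2, which recognises ultraviolet damage, had 557 and 537 with miR-376a*A and 242 and 218 with control (log2 difference 1.25, SE 0.09). RRM2B, the p53-induced subunit of ribonucleotide reductase, had 495 and 493 against 223 and 207 (1.20, SE 0.10). SESN1, a stress-induced regulator of mTOR, had 277 and 286 against 87.6 and 108 (1.52, SE 0.13). These 3 genes and TIGAR, which restrains glycolysis (1.15), each had limma's adjusted p at or below 9.5e-06. In each of the 4 the arrays left out lay on the opposite sides, DDB2 for instance at 197 on miR-376a*A replicate 1 and 510 on control replicate 1.

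Axon guidance genes, which include semaphorins, ephrins, netrins and their receptors, were higher in 20 of 44 tested members and lower in 2 (76 on the array, median 0.55). Beside SEMA7A, the ligand EFNB2 had 1370 and 1506 against 560 and 524 (log2 difference 1.41, SE 0.08). NTNG1, a membrane-anchored netrin, had 265 and 308 against 82.2 and 61.9 (1.99, SE 0.18), and SEMA5A had 478 and 500 against 209 and 185 (1.31, SE 0.12). NTNG1 and SEMA5A were lower with miR-376a*G than with either other group, at 17.9 to 21.1 and 37.8 to 43.3.

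The list of IGF-binding proteins and stanniocalcins had 12 genes on the array, all of them tested, and 10 were higher and 0 lower, with a median of 0.50. IGFBP3, which carries most of the circulating insulin-like growth factor, had 3340 and 3053 with miR-376a*A and 1254 and 1101 with control, a log2 difference of 1.44 (SE 0.10; limma, adjusted p = 2.1e-06). With miR-376a*G it was 198 to 224, below every array of the other groups. IGFBP6 differed by 0.53, and by 0.25 with no call under scaling to the hybridisation controls (adjusted p = 0.065).

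Genes of the HIF pathway, which responds to low oxygen, were higher in 15 of 30 tested members and lower in 2 (median 0.38). ERO1A, an oxidase that forms disulfide bonds in secreted proteins, had 933 and 1035 against 282 and 254 (log2 difference 1.87, SE 0.10). VEGFA, the angiogenic growth factor, had 2396 and 2590 against 1384 and 1305 (0.89, SE 0.10), and the oxygen sensor EGLN1 558 and 611 against 332 and 326 (0.83, SE 0.09). ADM, the vasodilator peptide adrenomedullin, differed by 0.62. The list sat above its mean over 9 arrays on all 6 arrays of miR-376a*A and control, by 0.27 to 0.70, and below it by 0.93 to 0.97 on the miR-376a*G arrays.

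The core of the hypoxia response element, to which the HIF dimer binds, was searched in promoters of this list because 15 of its 30 tested members were higher. The letters were ACGTG on either strand in the window from 250 bases before to 50 after the start of each gene (RefSeq, GRCh38.p14). They were in 12 of 23 members with a promoter sequence there (52.2%), against 21.4% of all 35116 promoters, those of untested genes included. The list was drawn up as genes of the HIF pathway, so its share describes the list and not the comparison of arrays. Shown are 30 bases from the 2 named genes that held them, with the match in capitals, EGLN1 at chr1:231422288-231422317 and ERO1A at chr14:52695655-52695684, both on the minus strand. In ERO1A the match is to the opposite strand and reads CACGT.
EGLN1: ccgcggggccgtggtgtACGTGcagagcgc
ERO1A: cgggcgccgcggCACGTccacaggctgggt
Of the 12 members with the letters 6 were called, each higher, and 6 were not; in the whole list 17 of 30 were called. A match is a description of the letters only.

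Lists of signalling followed with smaller medians. Feedback genes of the MAPK pathway were higher in 13 of 26 and lower in 1 (median 0.28). DUSP6, a phosphatase of ERK, had 1213 and 1150 on miR-376a*A replicates 2 and 3 and 436 and 346 on control replicates 2 and 3, a log2 difference of 1.60 (SE 0.11; limma, adjusted p = 1.7e-06). SPRY4 and SPRY2, inhibitors of receptor signalling, differed by 1.45 and 1.23, and the phosphatase DUSP4 by 1.24. Of the Wnt pathway 13 of 31 were higher and 5 lower (median 0.28), among them the secreted proteins DKK3 (2.17), SFRP2 (1.48) and WNT5A (1.15) and the Wnt carrier WLS (0.85). WNT5A had 1635 and 1656 against 722 and 760.

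Of nuclear receptors 9 of 24 were higher and 3 lower (median 0.36). VDR, the vitamin D receptor, had 129 and 168 against 39.5 and 49.4 (log2 difference 1.71), while PPARA, a lipid-sensing receptor, was lower at 47.5 and 68.5 against 139 and 136 (-1.25). NR2F1 differed by 1.07. NR1D2, a repressor of the circadian clock, differed by 1.11 and also led the clock genes, of which 9 of 18 were higher and 2 lower (median 0.31). CLOCK itself, the activator at the centre of that circuit, was lower, at 121 and 123 against 254 and 269 (-1.09), and NFIL3 (0.61) and NPAS2 (0.70) were higher. NPAS2 lost its call under scaling to the hybridisation controls (0.42, adjusted p = 0.056).

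Enzymes of glycosylation and proteoglycan sulfation were higher in 30 of 70 tested members and lower in 6 (median 0.32). GALNT1, which starts mucin-type chains, had 1039 and 1038 with miR-376a*A and 204 and 198 with control (log2 difference 2.36, SE 0.09; limma, adjusted p = 5.9e-08). EXT1, which extends heparan sulfate, had 1045 and 1166 against 411 and 430 (1.39), and NDST1, which sulfates it, 346 and 402 against 113 and 124 (1.65). CHST1, a keratan sulfate sulfotransferase, differed by 2.58, and by 1.99 with a pseudocount of 16. GALNT1 was also high with miR-376a*G, at 790 to 907, whereas EXT1 stood at 254 to 282 there.

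Actin and smooth muscle contractile genes were mixed, with 9 of 26 higher and 5 lower (median 0.28). ACTA2, smooth muscle actin, had 595 and 627 against 110 and 155 (log2 difference 2.22, SE 0.14), and MYLK, TPM1 and CNN3 differed by 1.04, 1.00 and 0.90. Of potassium channels only 7 of 31 were higher and 2 lower, and 86 are on the array (median 0.28, and -0.02 as labelled). KCNN4 and KCNMA1, both calcium-activated channels, differed by 1.04 and 1.15, and the accessory subunit KCNE4 by -1.30. KCNJ15, at 0.56, lost its call without miR-376a*A replicate 2 (0.51, adjusted p = 0.061), without control replicate 2 (0.52, adjusted p = 0.081) and under scaling to the hybridisation controls (0.29, adjusted p = 0.304).

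**Figure D3:**
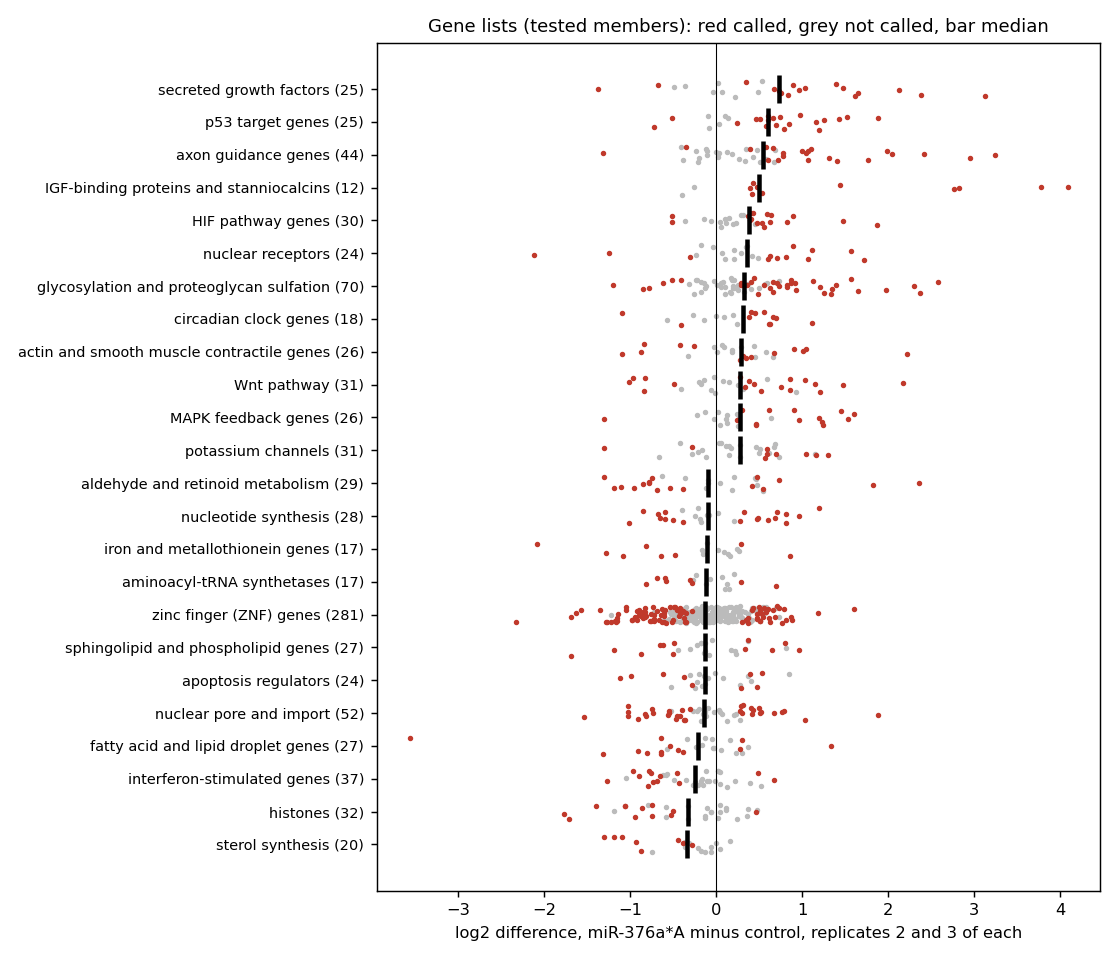
Log2 difference of miR-376a*A from control over replicates 2 and 3 of each, 1 point for each tested member of the 12 gene lists with the highest and the 12 with the lowest medians (tested members in brackets), red where called, with a black bar at the median. Medians run from 0.73 for secreted growth factors to -0.34 for sterol synthesis, and most lists hold called members on both sides of 0.

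Sterol synthesis had the lowest median, -0.34, with 8 of 20 tested members lower and 0 higher. HMGCS1, an early enzyme of the pathway, had 144 and 160 on miR-376a*A replicates 2 and 3 and 331 and 364 on control replicates 2 and 3 (log2 difference -1.19, SE 0.11; limma, adjusted p = 1.1e-05). The late enzymes SC5D and DHCR7 had 77.0 and 77.5 against 207 and 180 (-1.31), and 151 and 172 against 345 and 344 (-1.09). INSIG1, which holds back the sterol-sensing transcription factors, had 778 and 786 against 1416 and 1579 (-0.93). Both miR-376a*A arrays lay below both control arrays in these genes, again named for their small p and beside 69.5% of all genes with groups apart.

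Of fatty acid and lipid droplet genes 10 of 27 were lower and 3 higher (median -0.21). After ELOVL5 came HADHB, of mitochondrial fatty acid oxidation, with 451 and 499 against 1166 and 1206 (log2 difference -1.32, SE 0.08). CPT1A, which admits fatty acids to mitochondria, differed by -0.80 and ACADVL by -0.65. Sphingolipid and phospholipid genes were split, 7 of 27 lower and 5 higher (median -0.13), led by UGCG, which makes glucosylceramide, at 244 and 319 against 854 and 955 (-1.69, SE 0.12). CDS1 differed by -1.19, and LPCAT1 (0.80) and AGPAT4 (0.96), which add fatty acids to phospholipids, were higher.

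Histone genes were lower in 11 of 32 tested members and higher in 1 (59 on the array, median -0.33). H1-2, a linker histone, had 79.7 and 62.6 against 240 and 245 (log2 difference -1.76, SE 0.13; limma, adjusted p = 2.4e-06). H2BC5 had 104 and 90.3 against 238 and 275 (-1.39), and H2BC21 and H2BC12L differed by -1.72 and -0.95. Histone genes are close copies of each other, so their probe sets may share signal. With miR-376a*G the list lay 0.50 to 0.76 above its mean over 9 arrays, on miR-376a*A replicates 2 and 3 0.41 and 0.45 below it. The cell cycle genes set aside ran the same way, 0.78 to 0.80 above with miR-376a*G and 0.46 and 0.53 below on miR-376a*A replicates 2 and 3. Whether the histone genes changed apart from the cell cycle genes was not tested.

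Interferon-stimulated genes were lower in 11 of 37 and higher in 2 (median -0.25). IFI35 had 131 and 123 against 244 and 230 (log2 difference -0.90, SE 0.11), and SAMHD1, which depletes nucleotides, 130 and 127 against 218 and 212 (-0.74). TLR3, a sensor of double-stranded RNA, had 18.4 and 18.6 against 50.9 and 41.7 (-1.27). Its miR-376a*A signals lay below the medians of those arrays, and the difference was -0.85 with a pseudocount of 16. GBP1, an interferon-induced GTPase, was higher (0.67). All 37 together were called in 35.1%, below the 41.9% of all genes.

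**Figure D4:**
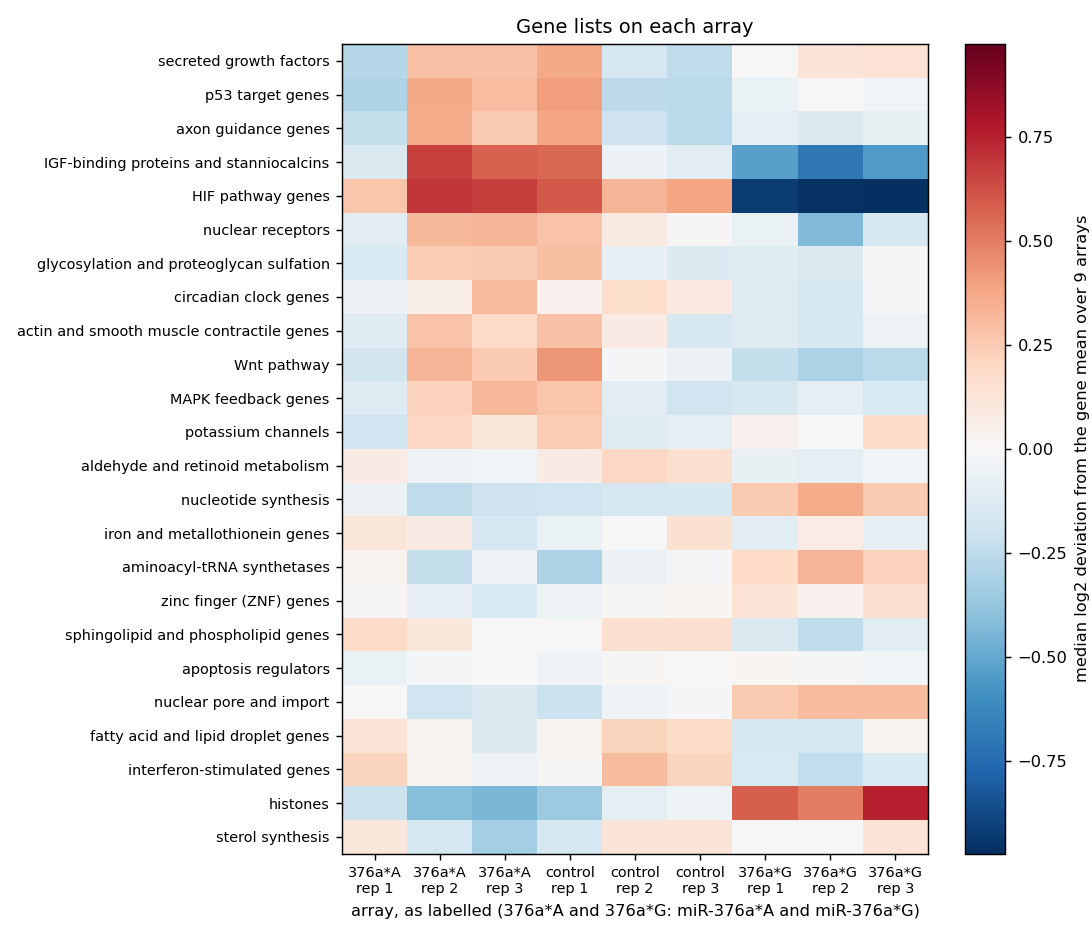
Median deviation of each gene list's tested members from their mean over the 9 arrays (log2, colour), for each array as labelled. Secreted growth factors are at -0.28 on miR-376a*A replicate 1 and 0.37 on control replicate 1, and at 0.29 on miR-376a*A replicates 2 and 3; HIF pathway genes and histones are set apart mainly on the miR-376a*G arrays.

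The other lists on the low side lay close to 0. Of 281 ZNF genes, which code for zinc finger transcription factors, 68 were lower and 31 higher (median -0.13), led by ZNF451 (-1.63), ZNF655 (-1.17), ZNF367 (1.60) and ZNF175 (1.18). Of nuclear pore and import genes 19 of 52 were lower and 15 higher (median -0.14), with NUP37 at 489 and 470 against 134 and 124 (log2 difference 1.89) and NUP50 at 126 and 103 against 332 and 333 (-1.54). NUP35 differed by -1.03 and the import receptor KPNB1 by 0.79. Of 17 aminoacyl-tRNA synthetases 6 were lower and 2 higher (median -0.12). RARS1 (-0.81; -0.48 without miR-376a*A replicate 2), EPRS1 (-0.69) and FARSA (-0.60) were lower and WARS1 (0.69) higher.

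Cell death and metal genes showed a few clear members within lists near the background. Of apoptosis regulators 5 of 24 were lower and 4 higher (median -0.14). XIAP, an inhibitor of caspases, had 402 and 403 on miR-376a*A replicates 2 and 3 and 789 and 815 on control replicates 2 and 3 (log2 difference -0.99, SE 0.09; limma, adjusted p = 1.5e-05). The caspases CASP6 (-1.12) and CASP8 (-0.62) were lower too, and DIABLO, which antagonises XIAP, was higher (0.48; 0.20 with no call under scaling to the hybridisation controls, adjusted p = 0.113). XIAP was as low with miR-376a*G, at 349 to 401. Of iron and metallothionein genes 6 of 17 were lower and 2 higher (median -0.10). MT1M, a metallothionein with close paralogs, had 48.7 and 56.0 against 225 and 224 (-2.08), the zinc importer SLC39A14 509 and 619 against 1257 and 1494 (-1.29) and the iron transporter SLC11A2 414 and 452 against 736 and 793 (-0.82). STEAP3, an iron reductase, differed by 0.85.

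Aldehyde and retinoid metabolism had 11 of 29 members lower and 6 higher (median -0.09). CYP26B1, which degrades retinoic acid, was higher, at 125 and 141 against 34.8 and 39.1 (log2 difference 1.82), while the retinol dehydrogenases RDH11 (-1.10) and DHRS3 (-0.85) and the aldo-keto reductase AKR1B10 (-0.78) were lower. Nucleotide synthesis had 8 of 28 lower and 11 higher, and its median (-0.10) and mean (0.03) differed in sign. NT5E, the ectonucleotidase CD73, had 2151 and 2299 against 1132 and 1154 (0.96), IMPDH2 differed by 0.81, and PFAS, of purine synthesis, by -1.02.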

How the data were processed

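The authors deposited 1 linear signal intensity per probe set and array. Per the submitters' processing notes the software was GCOS 1.4.0.036. In the values themselves every array had the same mean signal of 100.0 after trimming 2% at each end; how probes were summarised is not given in the sources read. Per the labels' protocols, total RNA was extracted with Trizol and labelled with Biotin-ULS.

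The platform's probe table, which can be old, gave 1 gene for 41091 of 54675 probe sets and several for 1801, and 11777 are unnamed here. Each of 19775 genes was represented by its brightest probe set on average, and 12587 genes above the array median on at least 3 arrays were tested. Values were taken as log2 with a pseudocount of 1 and fitted with limma 3.58.1 in R 4.3.3 (lmFit, eBayes with trend), over 9 arrays and again over 7. For genes with signals near the floor the size of a difference depends on the pseudocount. DISP2, for instance, differed by 5.53 with a pseudocount of 1 and by 3.52 with 16. Tests are two-sided, p-values were Benjamini-Hochberg adjusted over all tested genes, and a gene was called at an adjusted p under 0.05. Residual degrees of freedom were 6 and 4. The number of arrays limits the precision. The scripts were tested on simulated data.

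Named genes were the 5 (6 labelled arrays) or 15 (without the 2 arrays) of largest log2 difference in each direction whose groups did not overlap and whose higher group averaged at least 100, with locus-number names and, in the second case, cell cycle and matrix genes passed over, the 4 members of smallest p in the 12 lists of highest and 12 of lowest median, and RAP2A. The comparison, its lists and its rules were chosen with earlier results of these data known. Alternatives covered the pseudocount, the filter, 4 scalings, array weights, probe sets, samples fitted, the replicate block, the variance trend and leaving out each array. Deviations of same-numbered miR-376a*A and control arrays from their group means correlated at -0.88, -0.61 and -0.56 as labelled. Those values cannot test pairing, because both replicates 1 lay with the other group, which makes the deviations oppose. Without the 2 arrays the correlation was 0.06, a single value, so whether replicate numbers pair arrays is not known.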

Additional observations from a re-analysis of the deposited data

How the results depend on the processing

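As labelled, limma called 0 genes under every alternative but 1: with arrays weighted by limma 5513 were called (2476 higher, 3037 lower), at weights of 0.154 and 0.165 for the replicates 1 of the 2 groups and 0.674 to 2.93 for the other arrays, so that count is no separate evidence from the one without these 2 arrays. Leaving out each array gave 0 every time, with 118 to 2669 genes at an unadjusted p under 0.05, the highest number without miR-376a*A replicate 1. Without both arrays, leaving out a further array gave 3941 to 5311 calls against control and 6659 to 7341 against miR-376a*G (7508 with none left out); an arm left with 1 array is assumed to vary like the others. Testing every probe set gave 9767 and 14182 calls, of 24310 probe sets in place of 12587 genes. With the replicate number as a block, 0 genes were called as labelled (195 unadjusted) and 4700 without the 2 arrays (4620 of them among the 5269). Against miR-376a*G the block gave 6704 calls. Whether the numbers pair arrays is not known.

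The share of calls that were higher against miR-376a*G was 43.0%, and 57.3%, 10.7% and 29.7% under median centring, hybridisation scaling and poly-A scaling. Against control poly-A scaling gave 55.1%. Of the named genes against control 2274 values kept their call and direction and 6 lost the call; none reversed. Against miR-376a*G, TMEM200A (-0.17) and TWSG1 (-0.031) reversed under hybridisation scaling, and PTN (0.0041) without miR-376a*A replicate 3 (-0.41 without replicate 2); the cause was not tested. Of list medians 183 were unmoved and 129 moved. Their signs were checked under the scalings only, where none reversed. Whether any reversed under the other alternatives was not tested. A pseudocount of 64 moved 32 of 120 named genes by over 1.5 times. For ZNF451, ZNF175, NUP37, SC5D, CHST1 and TMT1A no other tested probe set of the gene was called in the same direction. Of the 120 named genes 0 had another probe set called in the opposite direction. Probe sets of low signal and the 2 arrays per group set the limits; detection calls were not used here.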

Other observations

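The other 42 gene lists had medians between -0.09 and 0.27 without the 2 arrays, and 15.2 to 64.3% of their tested members were called. Of cytosolic ribosomal proteins 30 of 53 were higher with miR-376a*A and 0 lower (median 0.27, and 0.00 under scaling to the hybridisation controls), and of glycolysis enzymes 10 of 20 were higher and 2 lower (median 0.27, and 0.00 under that scaling). TGF-beta and BMP pathway genes were higher in 13 of 34 and lower in 3 (median 0.26). Proteasome subunits and the respiratory chain were among the lists with the fewest calls, 1 of 33 higher and 4 lower, and 2 of 72 higher and 10 lower. Of ribosome biogenesis genes 8 of 25 were lower and 1 higher. In the unfolded protein response 12 of 28 were higher and 6 lower (median 0.20, and -0.08 under that scaling).

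Markers of other cell types moved in single genes. PDGFRA, a growth factor receptor of oligodendrocyte precursors and many gliomas, had signals of 47.8 and 55.0 on miR-376a*A replicates 2 and 3 and 7.38 and 8.80 on control replicates 2 and 3, with 10.7 and 47.8 on the arrays left out (limma, adjusted p = 0.00142). Its control signals lay below the array medians, so no size is given. MAP2, a neuronal microtubule protein, was lower, at 212 and 185 against 473 and 517 (-1.32; limma, adjusted p = 1.1e-05), while SNAP25 was higher (2.93), so markers of 1 cell type ran in both directions. Of leukocyte and endothelial markers PTPRC (at most 8.46) and VWF (at most 6.92) were near the bottom of the scale on every array, while CSF1R (22.6 to 65.6) and PECAM1 (38.7 to 135) were called higher and KDR reached 103 without a call.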
